A study of Canis lupus familiaris with 21 samples.

Results

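RNA of plasma extracellular vesicles (EVs), the membrane-bound particles that cells release into blood, was sequenced in 12 libraries from companion dogs. The dogs were labelled young, old or CCD (canine cognitive dysfunction, a loss of memory and learned behaviour in elderly dogs). The label of each library ends in a number, and 9 cortex libraries of the same series carry numbers too. The numbers of 3 EV libraries, 1 per condition, have no cortex library: CCD EV_523, old EV_519 and young EV_502. They are called EV-only here and were set against the 9 cortex-matched EV libraries, whose numbers recur in cortex: CCD EV_163, EV_354 and EV_358, old EV_250, EV_253 and EV_264, and young EV_270, EV_353 and EV_377. The 3 and the 9 make up all 12 EV libraries, of 21 libraries in the series. The labels give the groups by condition alone, without age in years, breed, sex or collection date. They do not say whether each number is a separate dog or why 3 numbers lack a cortex library, so p-values measure the spread between these libraries. The 3 EV-only numbers are the highest of the 12. The labels name no batch, so a batch that holds these 3 alone cannot be told apart from the group. Each condition has 1 EV-only and 3 cortex-matched libraries, so condition is balanced between the groups compared.

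All 12 EV libraries were total RNA libraries depleted of ribosomal RNA and read as 150 bp pairs, per the labels. The EV-only libraries held 33.7, 31.1 and 36.8 M reads (CCD, old, young, the order used throughout for these 3). The cortex-matched libraries held 27.5 to 45.0 M reads with a median of 36.1 M. The depths overlapped (exact two-sided permutation p = 0.594, n = 3 and 9). The permutation exchanged libraries within a condition, which gives 64 arrangements and a smallest possible p of 0.0156. With 40 library measures tested, those at that smallest p had a Benjamini-Hochberg adjusted p of 0.104, so no library measure passed 0.05. The adjusted value depends on how many measures reach the smallest p.

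As background, plasma EVs carry fragments of messenger and noncoding RNA from blood cells, platelets, endothelium and other tissues. Repeats make up a large share of a mammalian genome and are mostly silent, and so are tissue-restricted genes such as olfactory receptors outside the nose. Satellites are tandem repeats of centromeres and other heterochromatin. LINEs and SINEs are retrotransposons copied through RNA, LTR elements derive from endogenous retroviruses, and DNA transposons move without an RNA copy.

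Repeats took up most reads in every EV library, and their makeup differed between the groups. Transposable element and satellite families held 74.9%, 76.3% and 75.7% of all reads in the EV-only libraries, against 76.1% to 84.2% with a median of 80.1% in the cortex-matched libraries. The ranges touched at young EV_377, the lowest of the 9 (exact permutation p = 0.0313, two-sided as for all measures, and adjusted p = 0.125). Satellites held 1.25%, 1.29% and 1.36% of all reads in the EV-only libraries, against 2.803% to 7.201% with a median of 4.22% in the cortex-matched libraries. All 3 were below all 9 (means 1.30% ± 0.0526 and 4.33% ± 1.57, SD, n = 3 and 9). SINEs went the other way, with 11.5%, 10.98% and 11.5% of reads in the EV-only libraries and 9.91% to 10.5% in the cortex-matched libraries. The 6 SINE families tested were AmnSINE1 and 5 of the MIR group, and none of their names points to dog or carnivore. DNA transposons held 8.34%, 8.09% and 8.37% in the EV-only libraries and 6.80% to 7.72% in the cortex-matched libraries. For satellites, SINEs and DNA transposons the exact p was the smallest possible, 0.0156 (adjusted p = 0.104). LINEs held 38.5%, 41.1% and 38.5% in the EV-only libraries against 40.1% to 46.4% in the cortex-matched libraries (exact permutation p = 0.0469, adjusted p = 0.125). LTR elements overlapped, at 14.8% to 15.9% in the EV-only libraries and 15.0% to 16.2% in the cortex-matched libraries (exact permutation p = 0.344, adjusted p = 0.444).

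Gene coverage was narrower in the EV-only libraries. After every library was thinned to the depth of the shallowest, 33022, 33428 and 32980 genes had a read in the EV-only libraries, against 33835 to 34484 genes with a median of 34304 in the cortex-matched libraries. Of 5337 genes that had no count in any of the 9 cortex libraries (called cortex-silent below), 80.4%, 83.8% and 79.9% had a read in the EV-only libraries. In the cortex-matched libraries 87.5% to 94.5% of them had a read, with a median of 92.5%. On both measures all 3 EV-only libraries lay below all 9 (exact permutation p = 0.0156 each, adjusted p = 0.104). Cortex-silent genes took 1.47%, 2.11% and 1.67% of gene reads in the EV-only libraries and 1.95% to 4.48% in the cortex-matched libraries, with old EV_519 inside the range of the 9 (exact permutation p = 0.0469, adjusted p = 0.125). The 10 highest genes of each library took 42.8%, 24.9% and 36.8% of gene reads in the EV-only libraries, against 11.3% to 36.4% in the cortex-matched libraries. CCD EV_523 and young EV_502 were above all 9 and old EV_519 was near their median of 27.0% (exact permutation p = 0.125, adjusted p = 0.217).

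**Figure D1:**
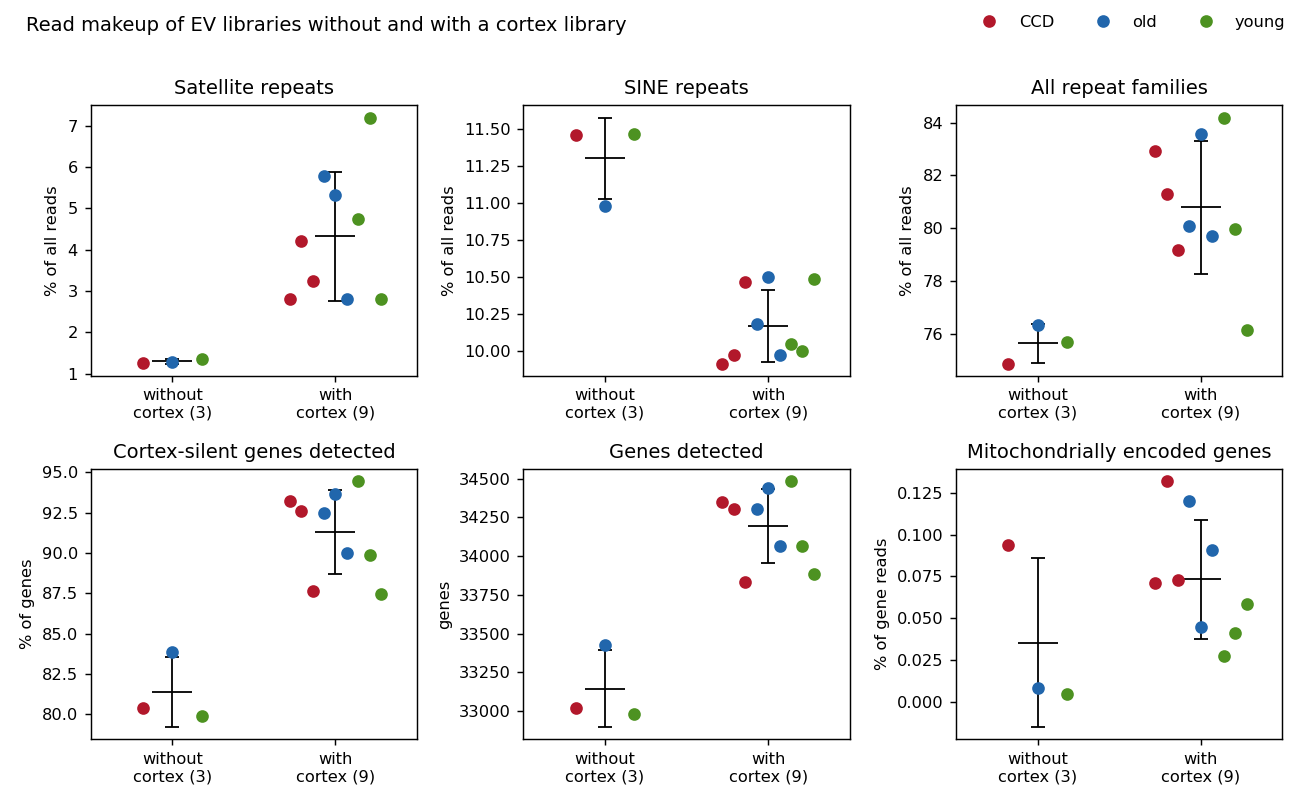
Each point is 1 EV library, coloured by condition; the left column of each panel holds the 3 libraries without a cortex library and the right column the 9 with one, and bars are the mean ± SD. The y axes are percent of all reads, percent of gene reads, percent of genes or number of genes; satellites, detected genes and detected cortex-silent genes lie lower in all 3 than in all 9 and SINEs higher, while mitochondrially encoded genes overlap, with CCD EV_523 at 0.0935% of gene reads.

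The libraries were also compared across all genes at once. Spearman correlations of gene levels among the EV-only libraries were 0.923 to 0.944, and among the cortex-matched libraries 0.821 to 0.949 with a median of 0.916. Between an EV-only and a cortex-matched library they were 0.741 to 0.939 with a median of 0.858. These correlations are across genes, which are not independent replicates, and are a description of the libraries. Young EV_377 was the cortex-matched library closest to each of the 3, at 0.929 to 0.939. On the first principal component, which held 53.1% of the variance, the EV-only libraries had scores of -0.79, -0.55 and -0.86 and the cortex-matched libraries -0.23 (young EV_377) to 0.68 (young EV_270). The second component held 11.2% and set old EV_519 (0.62) apart from CCD EV_523 (-0.35) and young EV_502 (-0.14).

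**Figure D2:**
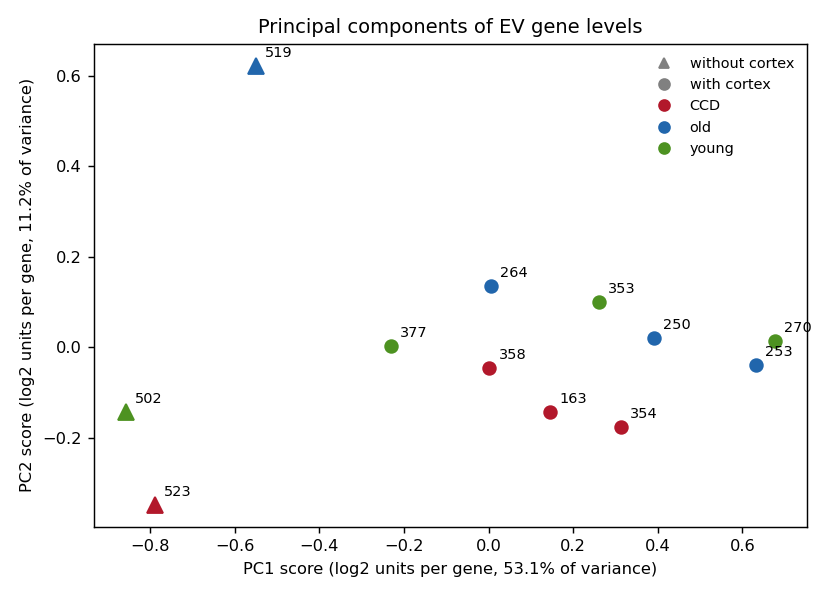
Scores of the 12 EV libraries on the first 2 principal components of log2 gene levels, in log2 units per gene; triangles are libraries without and circles libraries with a cortex library, and colours are conditions. The 3 triangles lie left of all circles (-0.86 to -0.55 against -0.23 to 0.68), and old EV_519 stands alone at 0.62 on the second component.

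Gene by gene, more genes fell than rose in the EV-only libraries. Levels are normalised counts scaled to all reads of a library, genes and families together, and were tested with limma as log2 of the count plus 1 with condition as a covariate. Of 31728 genes tested, 10019 (31.6%) passed an adjusted p of 0.05: 2165 rose (6.82%) and 7854 fell (24.8%). In 793 genes (2.5%) that rose and 3613 (11.4%) that fell, the 3 libraries lay wholly outside the range of the 9. The median log2 fold change of all tested genes was -0.28. Directions depended on the scaling: scaled to gene reads the median was -0.63 and 554 genes rose against 11839 that fell, and centred on the median gene 5080 rose against 5783 that fell. EdgeR on recovered reads called 4608 genes higher and 5167 lower. The counts also rested on single libraries, with 3983 genes called without young EV_502, 5582 without CCD EV_523 and 6351 without old EV_519 (222 higher and 6129 lower). In plasma, fewer vesicles of a kind, less RNA per vesicle and a batch that holds the EV-only libraries alone cannot be told apart.

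The share of genes that fell was higher at low levels. Tested genes were put into 5 bins of equal size by their mean level over all EV libraries. That mean uses the same values as the fold changes, and the cortex-matched libraries make up most of it. The minimum level for testing was set on the same mean. Near that minimum, genes low in the EV-only libraries alone were more readily kept than genes low in the cortex-matched libraries alone. Part of the trend with level may thus be built in, and how much was not tested. In the lowest bin (10.02 to 33.9 normalised counts) 36.8% fell and 0.38% rose, with a median log2 fold change of -1.06. In the highest bin (above 208 normalised counts) 12.01% fell and 16.96% rose, with a median of 0.10. Long noncoding RNA genes of RefSeq had medians of -1.15, -0.85, -0.60, -0.47 and -0.05 from the lowest to the highest bin, and protein-coding genes -0.86, -0.25, -0.06, -0.02 and 0.12. Over all bins 4351 of 10854 lncRNA genes (40.1%) fell and 176 rose, with a median of -0.82, while 2971 of 19121 protein-coding genes (15.5%) fell and 1858 rose, with a median of -0.06 that was 0.18 after centring. The lncRNA genes together took 13.95%, 11.97% and 13.9% of gene reads in the EV-only libraries and 12.9% to 19.4% in the cortex-matched libraries (exact permutation p = 0.0781, adjusted p = 0.164). As a share of all reads, chosen after seeing the data, they were on average higher in the EV-only libraries. The counts of genes that fell thus do not describe the total of lncRNA reads. Without young EV_502 the lncRNA genes that fell numbered 2043 and without CCD EV_523 2673. Protein-coding genes that fell numbered 982 and 1577 in the same settings, and those that rose 606 and 811, with 171 that rose without old EV_519. Over all genes 3301 of 31873 fell and 682 rose without young EV_502. Without CCD EV_523 4604 of 31849 fell and 978 rose, and without old EV_519 222 of 31778 rose. After quantile normalisation 1005 of 10854 lncRNA and 1108 of 19121 protein-coding genes fell, against 2278 of all 31728, so the classes differed less than before. Strand handling in the authors' counting is not given in the sources used here, so a lncRNA gene that overlaps another gene cannot be told apart from it.

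Olfactory receptor genes, which encode the odorant receptors of the nasal epithelium, had a median below that of all genes. Of 629 olfactory receptor genes 602 reached the level tested, and 306 of these (50.8%, against 24.8% of all genes) fell and 4 rose, with a median log2 fold change of -1.38 against -0.28 over all genes. The count was 158 without young EV_502 (26.2%, against 10.4% of all genes) and 185 without CCD EV_523 (30.7% against 14.5%). After quantile normalisation 40 fell (6.64%, against 7.18% of all genes), and the median was -0.32. In the lowest bin of level the median of 390 receptor genes was -1.46. The family holds close copies, so reads may be split between members. As a share of gene reads they took 0.254%, 0.230% and 0.318% in the EV-only libraries and 0.297% to 0.654% in the cortex-matched libraries (exact permutation p = 0.0781, adjusted p = 0.165). Cortex-silent genes as a whole fell in 1621 of the 3690 tested (43.9%) and rose in 64, with a median of -1.07, and the other 1647 of the 5337 did not reach the level tested. Of the cortex-silent genes 807 fell without young EV_502 and 1059 without CCD EV_523, in runs where 10.4% and 14.5% of all genes fell. After quantile normalisation 286 fell (7.75%, against 7.18% of all genes), and the median was -0.18.

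OR8S13, an olfactory receptor, had 0 reads in each of the 3, against 18.1 to 59.2 normalised counts with a median of 32.1 in the cortex-matched libraries. Set against a floor of 3 reads per library it was at least 10.7-fold lower (adjusted p = 4.0e-05). OR10A5F had 1.05, 2.27 and 0.959 normalised counts in the EV-only libraries, which are 1 or 2 reads, against 25.7 to 82.4 in the cortex-matched libraries (log2 fold change -4.25 ± 0.40, SE). OR4C11 stood at 3.15, 3.41 and 2.88 in the EV-only libraries and 24.8 to 77.6 in the cortex-matched libraries (-3.39 ± 0.38). OR5B24 (-2.83 ± 0.34), OR2F2 (-3.01 ± 0.39) and OR56A12 (-3.51 ± 0.46) were likewise below all 9 in all 3 libraries. For each of these receptors the adjusted p was at most 0.000354.

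The other genes of smallest p that fell, among genes whose groups do not overlap, include secreted proteins of glands. PIP, a protein secreted by exocrine glands, had 19.9, 18.2 and 11.5 normalised counts in the EV-only libraries, against 114 to 321 with a median of 172 in the cortex-matched libraries (log2 fold change -3.39 ± 0.31, adjusted p = 4.1e-05). SPINK1, the trypsin inhibitor of the pancreas, had 1.05, 1.14 and 0 in the EV-only libraries against 13.4 to 42.9 in the cortex-matched libraries (-3.98 ± 0.49). SAMD15, which codes for a protein with a sterile alpha motif, had 25.2, 49.96 and 29.7 in the EV-only libraries against 78.3 to 174 in the cortex-matched libraries (-1.83 ± 0.24). No EV-only library entered the range of the 9 for any of these, which that choice required. MIR1271, the gene of a microRNA precursor, had 0 reads in all 3 EV-only libraries and 8.54 to 59.8 normalised counts in the cortex-matched libraries, at least 7.25-fold lower. DEFB136, a beta-defensin (antimicrobial peptide) gene, also had 0 reads in all 3 and 6.29 to 33.9 in the cortex-matched libraries, at least 6.16-fold lower. Testing required a mean of at least 10 over all 12 libraries. Among tested genes, 13 had no read in any EV-only library and so were tested only through the cortex-matched libraries. So were SPINK1 (EV-only mean 0.73), OR10A5F (1.43), OR4C11 (3.14), AHSP (5.39), OR5B24 (6.26), OR2F2 (6.64) and OR56A12 (6.64). The olfactory receptor and cortex-silent counts above hold genes kept in this way too.

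The 10 genes of smallest p that rose, ranked among genes whose groups do not overlap, belong to different functions. SPATA32, named for spermatogenesis, had 395, 380.4 and 605 normalised counts in the EV-only libraries, against 134 to 263.75 with a median of 157 in the cortex-matched libraries (log2 fold change 1.45 ± 0.22, adjusted p = 6.5e-04). AURKB, the kinase that corrects chromosome attachment in mitosis, had 522, 736 and 679 in the EV-only libraries against 182 to 360.1 in the cortex-matched libraries (1.22 ± 0.20). SMG5, a factor of nonsense-mediated mRNA decay, had 4081, 7252 and 3506 in the EV-only libraries against 743 to 3239.6 in the cortex-matched libraries (2.01 ± 0.33). CYP39A1, an oxysterol 7-alpha-hydroxylase of bile acid synthesis, had 2837, 2562 and 4727 in the EV-only libraries against 142 to 1455 in the cortex-matched libraries (2.93 ± 0.55). By that choice all 3 libraries lay above all 9 for these genes, with SMG5 and CYP39A1 closest in old EV_264. MS4A14, a tetraspan membrane protein, was highest in old EV_519 at 6389, with 1368 in CCD EV_523 and 1993 in young EV_502, against 192 to 1124 in the cortex-matched libraries (2.64 ± 0.49). PLA2G2E, a secreted phospholipase (1.86 ± 0.29), RBM15, an RNA-binding protein of the m6A methylation complex (1.57 ± 0.30), SIX2, a homeobox factor of kidney progenitors (1.27 ± 0.25), TNNC2, the troponin C of fast muscle (1.38 ± 0.27), and FGFBP3, a binding protein of fibroblast growth factors (1.67 ± 0.33), rose as well. The adjusted p of all 10 was at most 0.00242, and each passed 0.05 in every alternative run.

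**Figure D3:**
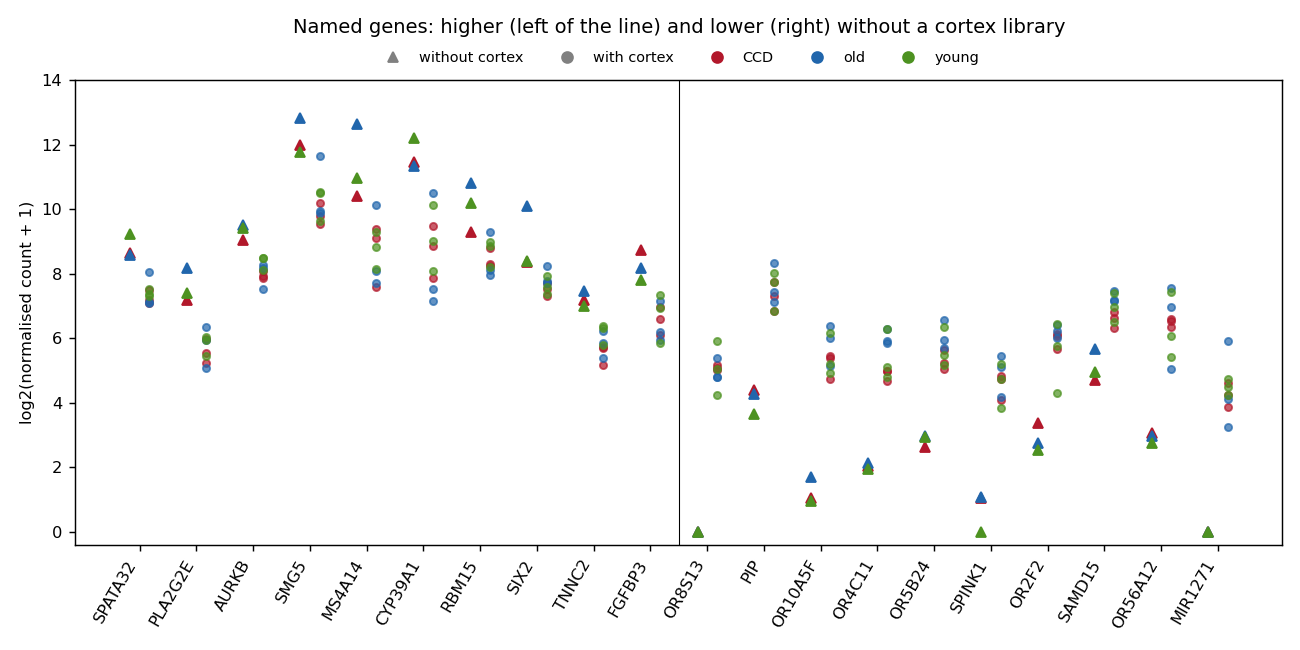
Log2 of the normalised count plus 1 for the 10 genes of smallest p that rose (left of the line) and the 10 that fell (right), chosen among genes whose groups do not overlap; triangles are the 3 EV libraries without a cortex library, circles the 9 with one, and colours are conditions. The separation of triangles and circles is fixed by that choice; the plot shows the levels, with OR8S13 and MIR1271 at 0 in all 3 and MS4A14 highest in old EV_519.

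A pair of genes rose in each of the 3 libraries when each was set against the 3 matched libraries of its own condition, though 0 genes did so with a pseudocount of 5 or after quantile normalisation. GRHL1, a grainyhead transcription factor of epithelia, had 1879, 9073 and 2232 normalised counts in the EV-only libraries. In the cortex-matched libraries it ranged from 115 (CCD EV_163) to 2096 (old EV_264) with a median of 387, so the groups overlapped although every EV-only library was above its own condition (log2 fold changes 3.40, 2.64 and 2.42). ZFAND2A, a zinc finger protein induced by heat shock and arsenite, had 639, 2548 and 910 in the EV-only libraries against 116 to 945 in the cortex-matched libraries (2.21, 2.25 and 1.97 by condition). Both were picked after their values were seen.

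Classes of abundant cellular RNA were described library by library. Of 74 cytosolic ribosomal protein genes, whose messages are abundant in blood cells and platelets, 9 rose (12.2%, against 6.82% of all genes) and 0 fell, with a median log2 fold change of 0.53 against -0.28 over all genes. That median was 1.74 in CCD EV_523, 0.31 in old EV_519 and -0.52 in young EV_502 relative to their conditions. Without CCD EV_523 it was -0.10, with 0 genes higher and 1 lower, in a run where 978 of all 31849 tested genes were higher and 4604 lower. RPS15, of the small subunit, had 249.8, 292 and 226 normalised counts in the EV-only libraries against 53.9 to 215 in the cortex-matched libraries (log2 fold change 1.16 ± 0.32, adjusted p = 0.0139). RPL36, of the large subunit, had 336, 203 and 151 in the EV-only libraries against 36.1 to 156 in the cortex-matched libraries, with young EV_502 inside that range (1.30 ± 0.34). Neither passed without CCD EV_523 (adjusted p = 0.0936 for RPS15 and 0.102 for RPL36) or without old EV_519 (0.0724 and 0.0905).

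Mitochondrially encoded genes, transcribed from the organelle's own genome, split the 3 libraries. Of the 13 genes 6 reached the level tested, and COX1, COX3 and ND1 are listed at 0 in all 12 libraries. CYTB, a subunit of complex III, had 2929 normalised counts in CCD EV_523, 198 in old EV_519 and 104 in young EV_502, against 546 to 3305 with a median of 1822 in the cortex-matched libraries. ND5, of complex I, had 2011, 208 and 93.1 in the EV-only libraries against 269 to 2071 in the cortex-matched libraries. Thus old EV_519 and young EV_502 lay below all 9, and CCD EV_523 lay within the range of the 9, below its maximum. The fit called 5 of the 6 lower (83.3%, against 24.8% of all genes), with CYTB at -2.06 ± 0.56 (adjusted p = 0.0134), but edgeR called 0 of the 6 and the test of a difference between the 3 libraries gave CYTB an adjusted p of 0.389. Without old EV_519 or without young EV_502, 0 of the 6 passed, in runs where 6351 of 31778 and 3983 of 31873 tested genes did.

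CCD EV_523 was high in other abundant cellular transcripts as well. RN7SL1, the RNA of the signal recognition particle, had 81872 normalised counts there, 14001 in old EV_519 and 11082 in young EV_502, against 11228 to 61389 in the cortex-matched libraries (log2 fold change -0.27 ± 0.69, adjusted p = 0.777). RPPH1, the RNA of ribonuclease P, had 673, 160.1 and 110.3 in the EV-only libraries and 192 to 688 in the cortex-matched libraries (-0.67 ± 0.43, adjusted p = 0.24). B2M, the light chain of class I histocompatibility molecules, had 1485 in CCD EV_523, 349.7 in old EV_519 and 124 in young EV_502, against 94.0 to 709 in the cortex-matched libraries (0.94 ± 0.57, adjusted p = 0.208). In each case CCD EV_523 was the highest or second highest of the 12, and the group difference did not pass. Without CCD EV_523 RPPH1 passed as lower (-1.58, adjusted p = 0.0132), and without young EV_502 B2M passed as higher (2.14, adjusted p = 0.0179).

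Markers of blood cells are listed by cell type, to be read against 24.8% of all genes lower, 6.82% higher and a median of -0.28. Of 25 erythroid genes 8 fell (32.0%) and 0 rose, with a median log2 fold change of -0.33. HBE1, an embryonic-type beta globin, had 19.9, 9.08 and 3.84 normalised counts in the EV-only libraries against 14.9 to 80.2 in the cortex-matched libraries (-2.28 ± 0.47), and AHSP, the alpha globin chaperone, fell by 2.11 on the log2 scale (adjusted p = 0.0926 without young EV_502). Of 23 neutrophil genes 9 fell (39.1%) and 3 rose (median -0.78). ELANE, neutrophil elastase, was among those that rose (226, 287 and 232 in the EV-only libraries against 42.9 to 178 in the cortex-matched libraries; 1.25 ± 0.34, adjusted p = 0.104 without old EV_519). Of 25 lymphocyte genes 7 fell (28%) and 1 rose (median -0.59). Of 17 monocyte genes 4 fell (23.5%) and 2 rose (median -0.46), among them AIF1, an actin-bundling protein of macrophages, at -1.64 ± 0.37 (adjusted p = 0.0608 without old EV_519). Of 25 platelet genes 2 rose and 1 fell (median 0.15, and -0.20 scaled to gene reads). TUBB1, the tubulin of platelets, had 409, 639 and 408 in the EV-only libraries against 164 to 372 in the cortex-matched libraries (0.79 ± 0.22, adjusted p = 0.0162), and did not pass without CCD EV_523 (adjusted p = 0.0754) or old EV_519 (0.094). Without young EV_502 the genes that fell numbered 2 in each of the erythroid, neutrophil and lymphocyte lists, in a run where 3301 of all 31873 tested genes fell. The shares of the erythroid, lymphocyte and monocyte lists that fell are near that of all genes.

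The markers of vesicles and of other tissues gave the following counts, to be read against 6.82% of all genes higher and 24.8% lower. Of 30 vesicle marker genes all were measured, and 3 rose and 2 fell (median -0.03, which was 0.21 after centring and -0.38 scaled to gene reads). PDCD6IP, the ESCRT adaptor ALIX, had 134, 187 and 133 normalised counts in the EV-only libraries against 77.4 to 121 in the cortex-matched libraries (0.62 ± 0.21, adjusted p = 0.0391, and 0.0844 to 0.167 when any of the 3 was left out). RAB7A, a late endosomal GTPase, had 35.7, 5.68 and 17.3 in the EV-only libraries against 36.2 to 111 in the cortex-matched libraries (-1.91 ± 0.45, adjusted p = 0.0821 without old EV_519 and 0.05003 without young EV_502). Of 28 liver plasma protein genes 2 rose and 6 fell (median -0.32), with HPX, the haem carrier hemopexin, at -1.33 ± 0.28 and ALB, serum albumin, at 71.4, 106 and 75.8 in the EV-only libraries and 49.7 to 100.5 in the cortex-matched libraries (adjusted p = 0.532). Of 15 endothelial genes 1 rose and 2 fell, of 14 fibroblast and adipose genes 1 rose and 2 fell, and of 17 skeletal muscle genes 2 rose and 5 fell. Of 20 keratin and skin genes 8 fell and 0 rose (median -0.50), and 2 fell without young EV_502, where 3301 of all 31873 tested genes fell. FLG, the filaggrin of cornified skin, had 63.0, 79.5 and 55.7 in the EV-only libraries against 130 to 692 in the cortex-matched libraries (-2.05 ± 0.40), and KRTDAP, a keratinocyte protein, stood at 4.20, 35.2 and 2.88 against 27.5 to 110.1 (-2.84 ± 0.51), with old EV_519 inside the range of the 9.

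Brain genes were counted as well, to be read against 6.82% of all genes higher and 24.8% lower. Of 27 neuronal genes 1 rose and 4 fell (median 0.01, and -0.34 scaled to gene reads). Of 16 glial genes 5 rose (31.25%) and 1 fell. OLIG1, a transcription factor of oligodendrocytes, had 277, 580.2 and 336 normalised counts in the EV-only libraries against 74.5 to 307 in the cortex-matched libraries, with CCD EV_523 inside that range (1.30 ± 0.37, adjusted p = 0.016, and 0.147 without old EV_519). OLIG2 stood at 259, 542 and 344 in the EV-only libraries and 73.4 to 295 in the cortex-matched libraries (1.21 ± 0.37, adjusted p = 0.0232, 0.157 without old EV_519 and 0.0845 without young EV_502). Without old EV_519, 0 glial genes were higher, in a run where 222 of all 31778 tested genes were. GFAP, the astrocyte filament (147, 311 and 167 in the EV-only libraries, 134 to 258 in the cortex-matched libraries, adjusted p = 0.862), and SNAP25, a synaptic membrane protein (51.4, 36.3 and 46.0 against 26.9 to 100.1, adjusted p = 0.387), did not pass. HBB, PF4 and MALAT1 were not analysed here.

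The remaining classes are to be read against 6.82% of all genes higher, 24.8% lower and a median of -0.28. Of 29 immediate early and stress genes 7 rose (24.1%) and 1 fell, with a median log2 fold change of 0.49. JUNB, a subunit of the AP-1 factor, had 284, 354.2 and 285 normalised counts in the EV-only libraries against 77.9 to 229 in the cortex-matched libraries (1.18 ± 0.29, adjusted p = 0.00775, and 0.0536 without old EV_519). MYC, a growth-promoting transcription factor, rose by a log2 fold change of 0.86 ± 0.24, and PPP1R15A, a stress-induced phosphatase subunit, fell by 0.92. Without young EV_502 their adjusted p-values were 0.115 and 0.0848. Without old EV_519 1 of the 29 rose, and without young EV_502 1 rose. Counts in this paragraph with a library left out are to be read against all genes in the same run. Those were 222 higher and 6129 lower of 31778 without old EV_519. Without CCD EV_523 they were 978 and 4604 of 31849, and without young EV_502 682 and 3301 of 31873. Replication-dependent histone genes counted 5 higher and 3 lower of 57 tested (66 in all), interferon-stimulated genes 3 and 3 of 31, housekeeping genes 3 and 2 of 28, very long genes 1 and 3 of 40, zinc finger ZNF genes 23 and 30 of 270 (5 and 28 without old EV_519, 13 and 9 without CCD EV_523, 7 and 10 without young EV_502), and protocadherin genes 0 and 0 of 3. Keratin-associated and defensin genes counted 0 higher and 13 lower of 31 tested (40 in all), with DEFB121 at -1.94 ± 0.31, and taste and vomeronasal receptor genes 0 and 4 of 16 tested (18 in all). Of 461 microRNA genes 77 reached the level tested, and 16 of these fell (20.8%) and 2 rose, with a median of -0.58. That share is below the 24.8% of all genes that fell. After quantile normalisation 4 fell and 8 rose, and the median was 0.76. As a share of gene reads all 461 together took 0.0285%, 0.0358% and 0.0264% in the EV-only libraries and 0.0439% to 0.0756% in the cortex-matched libraries, all 3 below all 9 (exact permutation p = 0.0156, adjusted p = 0.104).

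**Figure D4:**
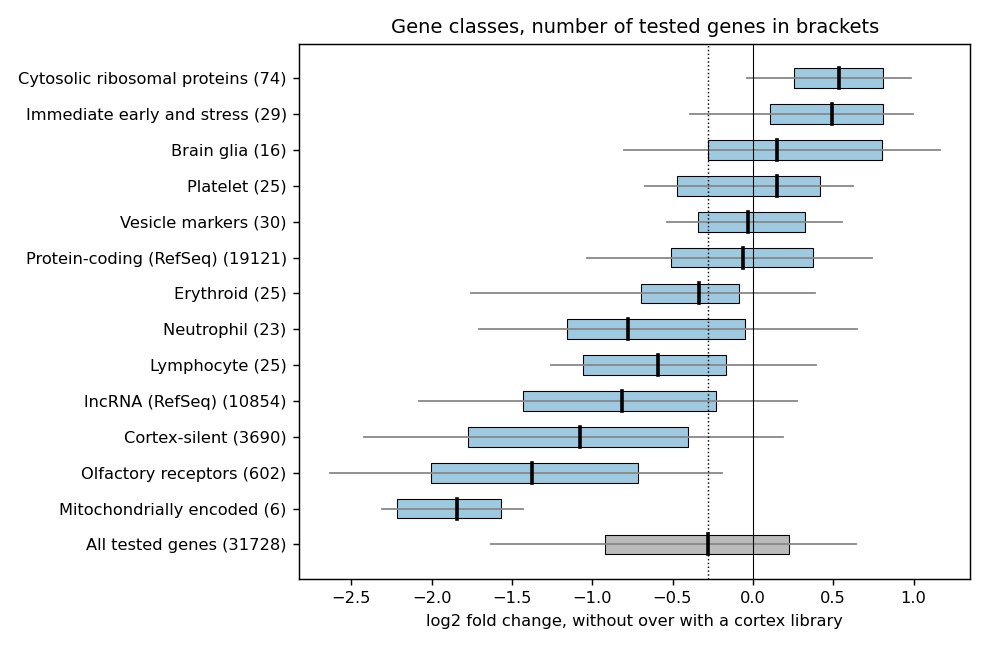
Log2 fold change, EV libraries without over those with a cortex library, in 13 gene classes and in all tested genes; the thick bar is the median, the box the middle 50% and the thin line the 10th to 90th percentile, with the number of tested genes in brackets and the dotted line at the median of all genes (-0.28). Ribosomal protein genes (median 0.53) and immediate early genes (0.49) lie to the right, and lncRNA (-0.82), cortex-silent (-1.07) and olfactory receptor genes (-1.38) to the left.

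Repeat families were tested as a set of their own. Of 811 families 243 (30.0%) passed: 29 rose (3.58%) and 214 fell (26.4%), with a median log2 fold change of -0.23. In 11 that rose (1.36%) and 75 that fell (9.25%) the groups did not overlap. Directions depended on the scaling here too: DESeq2 on recovered reads called 162 families higher and 135 lower with a median of 0.030, edgeR 71 and 139, centring 59 and 133, and quantile normalisation 49 and 75. The count rested on 2 of the EV-only libraries, with 5 families called without young EV_502 and 13 without CCD EV_523. Satellites fell in 4 of 5 families, with a median of -1.21. CarSat1, a satellite named for Carnivora, had 18608, 25314 and 14960 normalised counts in the EV-only libraries, against 101010 to 314870 with a median of 201000 in the cortex-matched libraries (-3.19 ± 0.36, adjusted p = 6.3e-04). Bsp, another satellite, had 54243, 74616 and 50250 in the EV-only libraries against 226320 to 665090 in the cortex-matched libraries (-2.72 ± 0.33). SAT1_CF, the most abundant satellite, had 363730, 348850 and 408410 in the EV-only libraries and 637530 to 1552400 in the cortex-matched libraries (-1.21 ± 0.24, adjusted p = 0.0119, and 0.0904 without young EV_502). For each of the 3 satellites all EV-only libraries lay below all 9, which for CarSat1 and Bsp was required by their choice among families without overlap.

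The repeat classes are to be read against 26.4% of all families lower and 3.58% higher. Among LINE families 32 of 138 fell and 4 rose, among LTR families 107 of 299 fell and 12 rose, and among DNA transposon families 49 of 281 fell and 11 rose, with a median of -0.17. The retroviral ERV1 group fell in 49 of 107 families, with a median log2 fold change of -0.46, and the L1 group of LINEs fell in 11 of 90 with a median of -0.06. The families of smallest p that fell include L1_Cf, an L1 named for the dog, with 63070, 85734 and 58863 normalised counts in the EV-only libraries against 137800 to 363320 in the cortex-matched libraries (-1.66 ± 0.26). L1_Canis1 stood at 445540, 552820 and 564580 in the EV-only libraries and 734850 to 1680100 in the cortex-matched libraries (-1.11 ± 0.22). CfERVF1_LTR, a dog retroviral repeat, had 616, 693 and 574 in the EV-only libraries and 1088 to 2875 in the cortex-matched libraries (-1.59 ± 0.25), and CR1-L3B_Croc had 19.9, 26.1 and 23.99 against 52.7 to 87.9 (-1.59 ± 0.20). Without young EV_502 the adjusted p was 0.0566 for L1_Cf and CfERVF1_LTR and 0.0721 for L1_Canis1, and it was 0.0818 for L1_Canis1 without CCD EV_523. Families whose names matched a set of patterns for dog or carnivore fell in 40 of 72 with a median of -0.53, and other families in 174 of 739 with a median of -0.20. Of the 72, 58 were ERV1 families, and 34 of these fell, so the grouping largely overlaps the ERV1 group above. The L1 families among the 72 fell in 3 of 9, with a median of -0.14. MER34A_CF was the 1 of the 72 that rose (0.69 ± 0.21, adjusted p = 0.031). The patterns missed L1_Canid2 and L1_Canid_, which are counted among the other families. That grouping was made after the values were seen and is a description without a test. Members of a family share sequence, so reads of young copies in particular cannot be placed on 1 copy.

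The families that rose came from several classes. MER96B, a hAT DNA transposon, had 37088, 35349 and 35501 normalised counts in the EV-only libraries against 13993 to 29812 in the cortex-matched libraries (0.86 ± 0.22, adjusted p = 0.0237). MamGypsy2-I, an LTR element, had 27824, 26668 and 29245 in the EV-only libraries against 16547 to 22495 in the cortex-matched libraries (0.55 ± 0.13). MIRb, the 1 of 6 SINE families that rose, held 1398800, 1736400 and 1463200 in the EV-only libraries against 1236800 to 1396800 in the cortex-matched libraries (0.22 ± 0.08, adjusted p = 0.0427), with CCD EV_523 just above the highest of the 9. MER136 (1.01 ± 0.26) and X24_DNA (0.63 ± 0.17) were also above all 9 in all 3, as their choice among families without overlap required. MIRb, MER136 and X24_DNA did not pass when any of the 3 libraries was left out (adjusted p 0.0611 to 0.159), and MER96B and MamGypsy2-I did not without CCD EV_523 or young EV_502 (0.102 to 0.146). Tigger10, a mariner-like transposon, had 15147, 39955 and 11146 in the EV-only libraries and 6954 to 9376 in the cortex-matched libraries (1.26 ± 0.26), and its distance differed between the 3 (adjusted p = 0.0148). MLT1E1, an LTR element, had 58934, 140880 and 59609 in the EV-only libraries against 16113 to 66378 in the cortex-matched libraries, where old EV_264 was highest (1.66 ± 0.25).

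**Figure D5:**
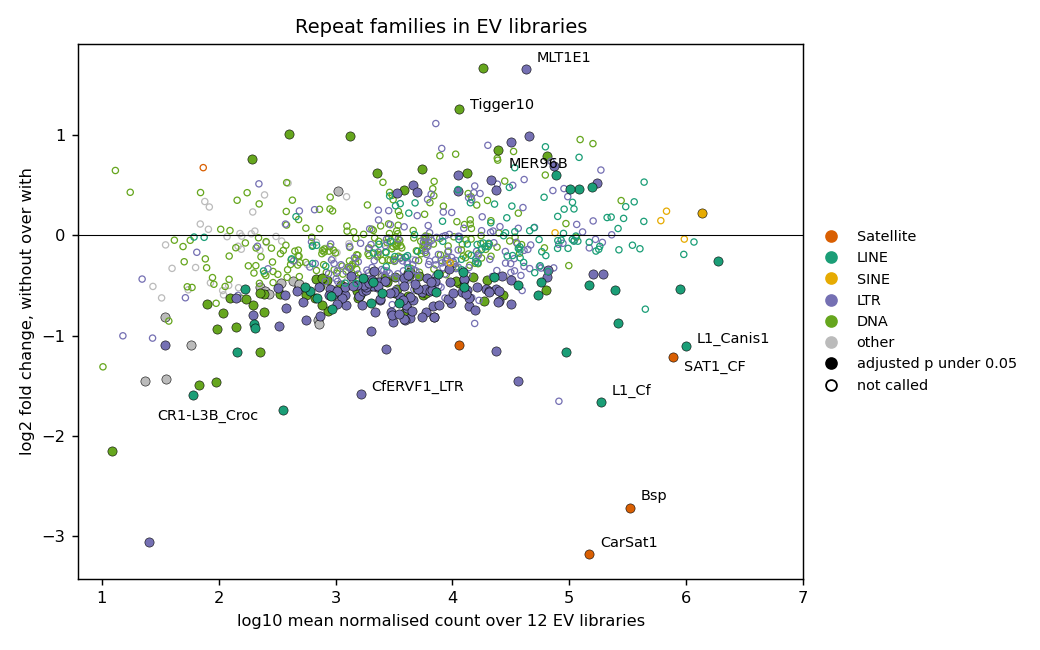
Each point is a repeat family, placed by log10 of its mean normalised count over the 12 EV libraries and by its log2 fold change, libraries without over those with a cortex library; colours are repeat classes and filled points passed an adjusted p of 0.05. CarSat1 (-3.19) and Bsp (-2.72) lie far below the other abundant families, and 214 of 243 filled points lie below 0 under scaling to all reads, where DESeq2 called 162 of 297 families higher.

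Each EV-only library was next set against the 3 cortex-matched libraries of its own condition, with the lone library assumed to vary like the others. CCD EV_523 differed in 842 genes (2.65%; 105 higher and 737 lower), old EV_519 in 619 (1.95%; 105 higher and 514 lower) and young EV_502 in 1923 (6.06%; 49 higher and 1874 lower). Families differed in 3 (0.37%), 11 (1.36%) and 6 (0.74%), and 0 passed in all 3 libraries. Of all genes 43 (0.136%) passed in the same direction in all 3 libraries, 41 lower and 2 higher. The 41 include OR8S13, OR10A5F, OR4C11, OR5B24, OR56A12, PIP, SPINK1 and MIR1271. After quantile normalisation the 3 libraries differed in 19, 9 and 13 genes, and 0 passed in all 3. A difference between the 3 libraries passed in 36 genes (0.113%, and 2198 at an unadjusted p under 0.05) and in 12 families (1.48%).

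Genes of small p for a difference between the 3 libraries were high in 1 of them. USO1, a tether of Golgi vesicles, had 89827 normalised counts in old EV_519, with 72.4 in CCD EV_523 and 67.2 in young EV_502, against 79.0 to 179 in the cortex-matched libraries (adjusted p of the difference between the 3 = 5.9e-06). ZSWIM8, a substrate receptor of a ubiquitin ligase, had 12080 in CCD EV_523, 380.4 in old EV_519 and 348 in young EV_502, against 318 to 515 in the cortex-matched libraries. TECTA, of the tectorial membrane of the ear, had 7683, 998 and 654 in the EV-only libraries and 529 to 776 in the cortex-matched libraries. PUS3, a pseudouridine synthase, had 76.6, 139 and 1460.3 in the EV-only libraries and 64.9 to 104 in the cortex-matched libraries. TECTA and PUS3 pass as higher in the comparison of the groups (adjusted p = 0.0272 and 0.0255) although 1 library alone is far above the others, and did not without it (0.493 without CCD EV_523 and 0.484 without young EV_502). Among families, L1ME2 had 69532, 561970 and 73593 in the EV-only libraries against 74386 to 96116 in the cortex-matched libraries, and MER92-int had 4663, 7306 and 33406 against 4811 to 6792. These genes and families were picked after their values were seen. Such genes occurred in both groups: 4, 6 and 5 genes in the EV-only libraries, and 2 to 7 in the cortex-matched libraries, were at least 10-fold above the next highest of the 12 libraries.

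The 3 libraries bore on the comparison of conditions as follows. With all 12 EV libraries limma called 0 genes between CCD and old, old and young, or CCD and young (1896, 394 and 904 at an unadjusted p under 0.05). With the 9 cortex-matched libraries it also called 0 (1334, 359 and 1625 unadjusted). With all 12 and the presence of a cortex library as a covariate 6 genes were lower in CCD than in old (0.0189% of those tested, 3469 unadjusted), and 0 passed for old against young (967 unadjusted) and CCD against young (1634 unadjusted). The median moderated variance of a gene was 0.273 with 12 libraries, 0.186 with the 9 and 0.193 with 12 and the covariate, in squared log2 units. The comparisons share libraries, so their counts are not independent. EdgeR and DESeq2 were not run on the conditions here.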

How the data were processed

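RNA sequencing gave 12 plasma EV and 9 cortex libraries. The authors deposited for each tissue a table of normalised signal (called normalized counts in its sheet) for 35803 features, 34981 genes and 822 repeat families; per the submitters' processing notes, STAR and DESeq2 were used, with versions, build, annotation and counter not given in the sources used here. EV values are scaled to equal totals per library. Dividing by a library factor gave whole reads for 100% of EV values (tolerance 0.01), hence the depths of 27.5 to 45.0 M reads; precision is limited by counting for low genes and by the spread between libraries for others. The cortex table served only to find the numbers and the 5337 silent genes. The RefSeq table of UU_Cfam_GSD_1.0 gave names (95.4% of symbols matched) and gene classes.

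Values were tested as log2(normalised count + 1) with limma 3.58.1 in R 4.3.3 (trend, condition as covariate), for genes and families with a mean of at least 10 over the 12 libraries, with Benjamini-Hochberg adjustment and a threshold of 0.05; fold changes on this scale understate those of low genes. EdgeR 4.0.16 and DESeq2 1.42.0 on recovered reads were alternatives. On simulated data limma recovered 19% of 100 genes planted at 2-fold and 76.5% of 98 at 4-fold, with 6 unchanged genes called among 31505 tested. The simulation changed few genes, drew each gene independently and held no shift shared by many genes of a library. In the data 31.6% of genes passed, so neither the recovery nor the 6 calls measure power or error there. Library measures had exact two-sided permutation tests within condition; shares of repeat classes and RefSeq gene classes were added after seeing the data. Named genes are the 10 per direction (families 5) of smallest p with a symbol, an adjusted p under 0.05 and no overlap, members of smallest p from each gene list (not all of them named), and ALB, B2M, GFAP and SNAP25. Others are said to be picked after their values were seen; L1_Canis1, SAT1_CF, MIRb, MLT1E1, ND5, RN7SL1 and RPPH1 were too. The grouping, lists and tests were chosen with earlier results of these data known. A few list members are not reported here.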

Additional observations from a re-analysis of the deposited data

Results flagged for a closer look

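The libraries below stood apart from the rest of their condition, or of the 9 cortex-matched libraries, by the gap to their nearest neighbour. Chance gives about 1 such set in 20. Most of the features were named because the EV-only libraries differ in them, so how often an EV-only library appears here follows in part from that choice and is not read against chance. No explanation was tested. CCD EV_523 was highest of its condition for AURKB (521.6 normalised counts), SMG5 (4080.6), TNNC2 (144.8), FGFBP3 (427), MLT1E1 (58934), JUNB (284), B2M (1485), GRHL1 (1879), ZSWIM8 (12080), TECTA (7683) and ZFAND2A (639). It was lowest for OR8S13 (0), OR56A12 (7.35) and CR1-L3B_Croc (19.9). Old EV_519 was highest of its condition for MS4A14 (6389), SIX2 (1088), Tigger10 (39955), GRHL1 (9073), USO1 (89827) and L1ME2 (561970). Young EV_502 was highest for SPATA32 (605), GRHL1 (2232), PUS3 (1460.3) and MER92-int (33406). Cortex-matched libraries stood apart as well. Old EV_250 was highest of the 9 for SPATA32 (263.75), old EV_264 for SMG5 (3239.6), MLT1E1 (66378) and ZFAND2A (945), old EV_253 for MIR1271 (59.8), and young EV_353 for RN7SL1 (61389) and B2M (709). Young EV_270 was lowest of its condition for MER136 (223) and CCD EV_163 highest for PUS3 (90.1).

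The distance of the EV-only library from its condition differed between CCD, old and young in 36 genes and 12 families (F test of limma). Among those named, the adjusted p was 5.9e-06 for USO1, 4.1e-05 for ZSWIM8, 0.00296 for TECTA, 0.011 for PUS3, 6.3e-04 for L1ME2, 0.00369 for MER92-int and 0.0148 for Tigger10.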

How the results depend on the processing

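No paired analysis was possible because the groups compared share no numbers. The cause of the changes below was not tested. Quantile normalisation called 3196 genes (918 higher, 2278 lower) and 124 families (49 and 75), and a mean of at least 50 called 5785 genes (4048 lower). Scaling to gene reads called 554 genes higher and 11839 lower, centring 5080 higher, edgeR 4608 higher and 5167 lower, and DESeq2 5683 higher. For families, library weights called 424 (82 higher, 342 lower), scaling to family reads 46 higher, centring 59 higher and 133 lower, edgeR 71 and 139, and DESeq2 162 and 135. Leaving out each library in turn gave 3983 to 12541 genes (222 to 3048 higher, 3301 to 9493 lower) and 5 to 342 families (2 to 60 higher, 3 to 282 lower). Over the library measures checked and the settings that left out no library, 8 differences passed that had not in the main test. With permutation over all 12 libraries they included cortex-silent genes detected (-9.90 percentage points) and genes detected (-1049), at an adjusted p of 0.0364. Without the 10 genes of highest mean, a setting chosen after seeing the data, the difference in the share of the 10 highest genes (4.20 points) passed at 0.0481. As a share of all reads, also chosen after seeing the data, lncRNA genes were higher by 0.176 points. Set against their conditions with a pseudocount of 5, the CCD, old and young libraries differed in 127, 131 and 522 genes, with 7 lower and 0 higher in all 3. After quantile normalisation they differed in 19, 9 and 13, with 0 in all 3 and 10 differing between the 3. The 6 genes lower in CCD than old appeared with the covariate alone. Log2 fold changes turned sign for genes and a family that had not passed. With library weights RN7SL1 was at 0.035 and GFAP at -0.051, with edgeR and DESeq2 RN7SL1 was at 0.34 and 0.37, scaled to gene reads ALB was at -0.16 and GFAP at -0.29, and after quantile normalisation SNAP25 was at 0.089. Leaving out each library gave -1.44 to 0.49 for RN7SL1, -1.58 to 0.0059 for RPPH1, -0.17 to 2.14 for B2M, -0.27 to 0.29 for GFAP, -0.93 to 4.46 for USO1, -0.32 to 2.48 for ZSWIM8 and -0.19 to 1.28 for L1ME2. The 10 genes of smallest p in each direction and CarSat1, Bsp, CR1-L3B_Croc, Tigger10 and MLT1E1 kept their direction and passed under all alternatives run for them. Counting limits genes near the minimum of 10 normalised counts, where an EV-only library holds few reads.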
